A study of Mus musculus with 72 samples.

Results

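The genes described here encode gamma subunits of heterotrimeric G proteins: Gng2, Gng3, Gng4, Gng5, Gng7, Gng10, Gng11, Gng12, Gng13 and Gngt2. They were chosen by name from the 53715 gene rows of the count files, and all 10 were found. The annotation used here holds 12 gamma genes in these files, and the remaining ones, Gng8 and Gngt1, are given only by their level. RNA was sequenced from 18 male mice aged 18 weeks on the C57BL/6J background, of which 6 were Gnb5-/-, 6 Gnb5+/- and 6 Gnb5+/+. The mutant Gnb5 allele lacks exon 3 from the germline on, and the labels name no treatment. Litters with Gnb5-/- pups were given softened food around weaning. Whole atria and whole ventricles were taken from all 3 genotypes, and whole cerebellum, both hippocampi and whole cerebral cortex from Gnb5-/- and Gnb5+/+ mice, which gives 72 libraries in 12 groups of 6. Each mouse gave all of its tissues, and the groups are called WT, HET and KO in the plots. Whole tissue was used, so fewer cells of a type and less RNA per cell cannot be told apart.

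A gamma subunit is a small protein that winds around a beta subunit and forms a dimer that does not come apart under physiological conditions. The dimer holds the alpha subunit at the membrane and, once released by an activated receptor, acts on ion channels, adenylyl cyclases, phospholipases and kinases. The atrial GIRK channel, through which the vagus nerve slows the heart, is opened by it. Gbeta5, the product of Gnb5, stands apart among beta subunits in that its stable partners are the R7 RGS proteins, which carry a gamma-like domain of their own, rather than the conventional gamma subunits. The comparison of genotypes therefore asks whether the messages of the conventional partners of beta subunits differ when Gnb5 is lost, and the comparison of tissues asks which gamma messages each tissue held.

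Every gamma subunit ends in a cysteine, a pair of further residues and a last residue that decides which lipid is attached to the cysteine: a last leucine is known to call for geranylgeranyl, and a last serine for the shorter farnesyl. The ends of the coding sequences are shown because they sort the 10 genes into these classes, to which the levels below refer. Each was read from the GENCODE release 21 transcripts of the mouse genome GRCm38, runs 5′ to 3′ over the last 27 bases of the coding strand with the stop codon, and has in capitals the cysteine codon, 4 codons before the stop, and the last codon.
Gng2: aagaagttcttcTGCgccatcCTTtaa
Gng3: aagaagttcttcTGTgcgctcCTCtga
Gng4: aagaagttcttcTGCaccatcCTCtaa
Gng5: ccccagaaagtcTGCtcctttTTGtag
Gng7: gacaaaaagcctTGCataattCTCtag
Gng10: gagcccaggtccTGTgctctaCTTtga
Gng11: gaaaagggcagcTGTgtcattTCAtaa
Gng12: gataagaagaccTGCatcatcTTAtag
Gng13: gagaaggccaagTGCaccatcCTAtga
Gngt2: gagaaaggcactTGTgtgctaAGCtga
The last codon is one of serine in 2 genes, Gng11 and Gngt2, and one of leucine in the other 8. All 10 coding sequences are short, from 67 codons in Gng13 to 75 in Gng3 and Gng4, and each gene has 1 annotated coding sequence. Over aligned coding bases the closest pair was Gng2 and Gng4, with 73.3% identity, followed by Gng2 and Gng12 with 72.7%, and the most distant was Gng4 and Gng11 with 48.4%.

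In GRCm38 the genes lie on 9 chromosomes: Gng2 (ENSMUSG00000043004) at chr14:19872559-19977627 on the minus strand, Gng3 at chr19:8836933-8839194 on the minus strand, Gng4 at chr13:13784059-13827896 on the plus strand, Gng5 at chr3:146499807-146505572 on the plus strand, and Gng7 at chr10:80948624-81014945 on the minus strand. Gng10 lies at chr4:59035088-59041903, Gng11 at chr6:4003904-4008445, Gng12 at chr6:66896397-67021350, Gng13 at chr17:25717171-25719406 and Gngt2 at chr11:95837216-95845734, all on the plus strand. Gng10 is uncertain in these counts: 72% of its exon bases also belong to Gm20503, an annotated read-through with its neighbour Dnajc25. Gm20503 had 0 reads in all 72 libraries. How the counting treated reads on shared bases is not given in the sources used here. If such reads were left out, the level, place and share of Gng10 below are too low, since its length holds all 1314 exon bases. This was not tested. Exons of Gng2, Gng3, Gng12, Gng13 and Gngt2 overlap a gene on the opposite strand. The library kit keeps the strand, but the strand setting of the counting is not given in the sources used here, so reads of these 5 genes and of their antisense partners may not have been told apart.

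Between 29204390 and 48807435 reads per library were counted on genes. Gnb5 checked the genotypes: its level, in TMM-scaled CPM, which is reads relative to the library's scaled total, taken over the 72 libraries, was 34.2 in the median Gnb5+/+ atrial library, 16.8 in that of Gnb5+/- and 2.00 in that of Gnb5-/-, with no overlap between genotypes. In ventricles the medians were 29.5, 14.5 and 1.5 in the same order, and Gnb5-/- medians in the brain were 9.86 to 14.4 against 76.4 to 105 in Gnb5+/+. Tissue markers followed the labels, with summed levels of 4 atrial muscle genes at a median of 26000 CPM in Gnb5+/+ atria and 263 in ventricles, of 4 ventricular muscle genes at 395 and 14700, of 5 cerebellar granule cell genes at 3040 in cerebellum against at most 112 elsewhere in the brain, and of 5 neuronal genes at 2740 to 3480 in the brain and at most 7.81 in the heart.

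Of the 72 libraries, 4 stood apart, and they bear directly on the gamma genes because these differ in transcript length. For each library the departure of every protein-coding gene at a mean of at least 1 CPM from the median of the other 5 libraries of its group was taken, and the median departure of genes with long transcripts (at least 4965 bases) was subtracted from that of genes with short ones (at most 2344 bases). This difference was 1.66 on the log2 scale in the Gnb5-/- cerebellum of mouse 12, 1.65 in the Gnb5-/- cortex of mouse 14, 1.09 in the Gnb5+/- ventricles of mouse 4 and 0.838 in the Gnb5-/- cortex of mouse 3, against -0.236 to 0.180 in the other 68 libraries. The same 4 libraries held fewer reads outside genes, with 8.02% in the cerebellum of mouse 12 against a group median of 15.5%, 6.86% and 8.32% in the cortex of mice 14 and 3 against 13.6%, and 2.85% in the ventricles of mouse 4 against 4.71%.

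In these libraries most of the short members were high. Gng13, with the shortest transcript of the 10 at 719 bases, stood 3.15 log2 units above that median in the cortex of mouse 14, 1.59 above it in the cerebellum of mouse 12, and 1.01 above it in the cortex of mouse 3. Gng11, at 919 bases, was 2.40, 2.43 and 0.853 above in the same order. Gng7, at 3433 bases, departed by -1.87, -0.85 and -0.559, and Gng12, the longest at 4248 bases, by -0.786, -0.332 and -0.212. Gng10, which is also short, departed by -1.34 in the cortex of mouse 14. Gng2, though long at 3826 bases, lay 0.478 above the median in that library. It departed by -0.136 in the cerebellum of mouse 12 and by -0.0278 in the cortex of mouse 3. In the ventricles of mouse 4, Gng11 departed by 0.947, Gng13 by 0.797 and Gng12 by -0.432, but Gng7 lay above the median there, by 0.613. Genotype differences that involve these groups are therefore given below with and without these libraries for the genes they moved most.

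**Figure D1:**
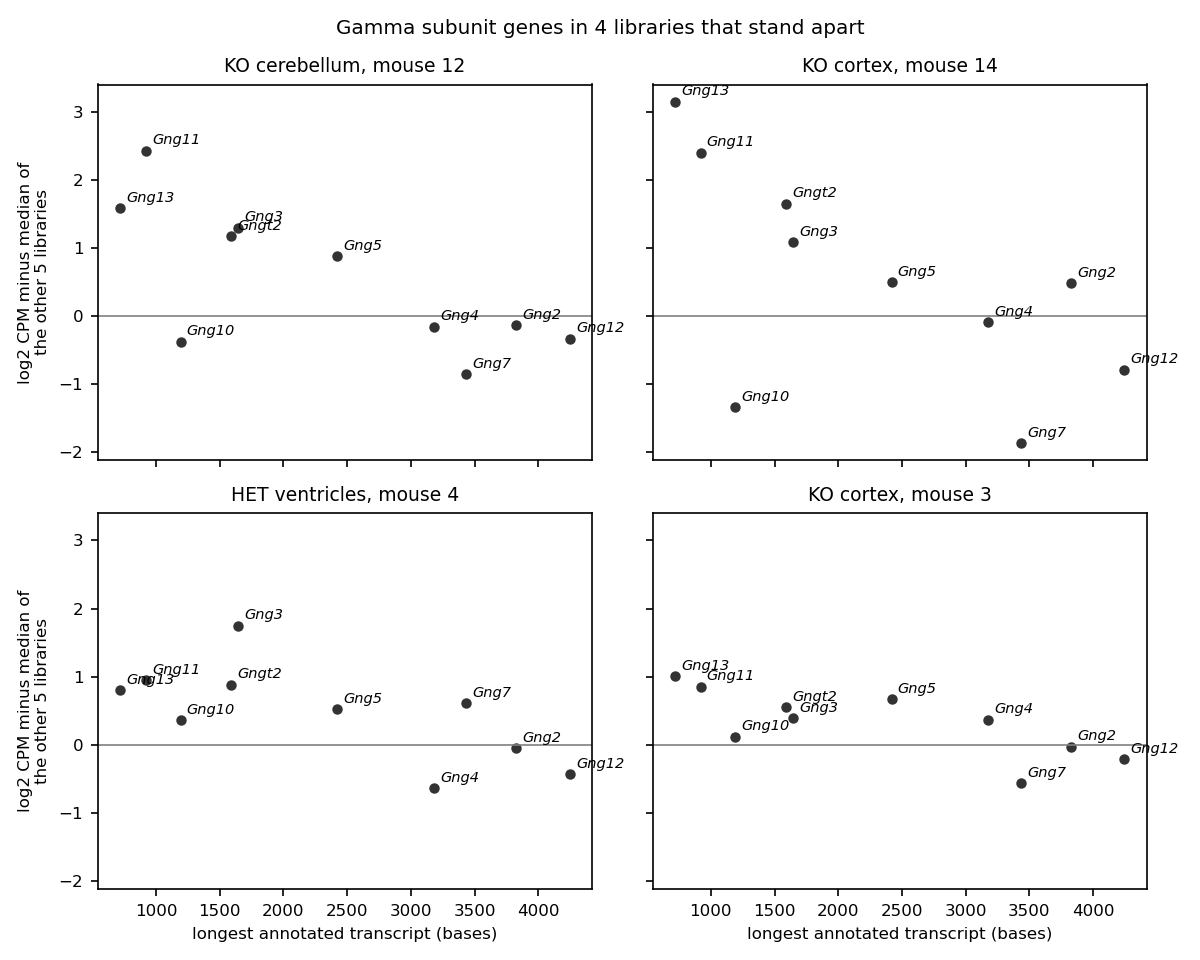
Departure of each gamma gene from the median of the other 5 libraries of its group (vertical axis, log2 CPM) against the length of its longest annotated transcript (horizontal axis, bases) in the 4 libraries that stood apart, 1 panel each and 1 point a gene. Gng13 and Gng11 lie at the upper left, reaching 3.15 and 2.40 in the cortex of mouse 14, while Gng7 lies below 0 in the 3 brain libraries and Gng12 in all 4 libraries.

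Levels between genes were compared per length, as RPKM, which is CPM divided by the exon length in kilobases. In Gnb5+/+ atria the order was led by Gng2 at 21 ± 3.40 RPKM (SD, n = 6), Gng5 at 21 ± 2.54 and Gng11 at 18.0 ± 3.86. Gng2, a broadly used subunit best known from the brain, and Gng5, which is found in most tissues and prominent in the embryo, overlapped in their values, as did Gng5 and Gng11, a farnesylated subunit known from endothelium and other cells outside the nervous system. Below them came Gng12, another broadly expressed subunit, at 9.60 ± 1.18, and Gngt2, the gamma subunit of cone transducin that is also transcribed in immune cells, at 4.05 ± 1.01. Gng13, which partners in taste cells and retinal bipolar cells, and Gng4, a neural subunit, stood at 1.79 ± 0.464 and 1.72 ± 0.392 with overlapping values. Gng7, best known from the striatum, was at 0.518 ± 0.181, and Gng10 and Gng3 were at 0.125 and 0.0607.

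Ventricles of the same mice held a narrower set. Gng11 at 27.7 ± 4.89 RPKM and Gng5 at 27.1 ± 3.62 overlapped at the top, followed by Gng12 at 10.7 ± 0.954 and Gngt2 at 4.15 ± 0.954, and Gng2 lay below these 4 at 1.64 ± 0.355. Gng7 was at 0.490 ± 0.172. The remaining 4 genes, Gng13, Gng4, Gng10 and Gng3, lay between 0.156 and 0.0105 RPKM and overlapped in order.

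Each brain region had another order. In Gnb5+/+ cerebellum Gng13 stood alone at 86.9 ± 4.44 RPKM, the highest level of a gamma gene in any Gnb5+/+ group, above Gng3, the main neuronal subunit, at 29.7 ± 2.99, and Gng2 at 11.8 ± 0.691. Gng11 at 8.10 ± 0.571 and Gng12 at 7.07 ± 0.566 overlapped, and Gng7 followed at 4.2 ± 0.338. In hippocampus Gng3 at 52.6 ± 4.74, Gng2 at 49.9 ± 2.01 and Gng7 at 46.0 ± 2.00 overlapped in that order. Gng12 was next at 11.3 ± 0.455, ahead of Gng13 at 6.94 ± 0.597 and Gng4 at 6.07 ± 0.572. In cortex Gng3 at 63.5 ± 6.47, Gng7 at 44.3 ± 9.31 and Gng2 at 29.5 ± 1.97 came in that order, and each overlapped with the next. Gng4 had its highest level there, 13.9 ± 0.961 RPKM. Gng5, among the leading genes of both heart tissues, was at 2.01 to 2.16 RPKM in the 3 brain regions. The counted level of Gng10, which may be too low, stayed at or below 0.334 RPKM in every Gnb5+/+ group.

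**Figure D2:**
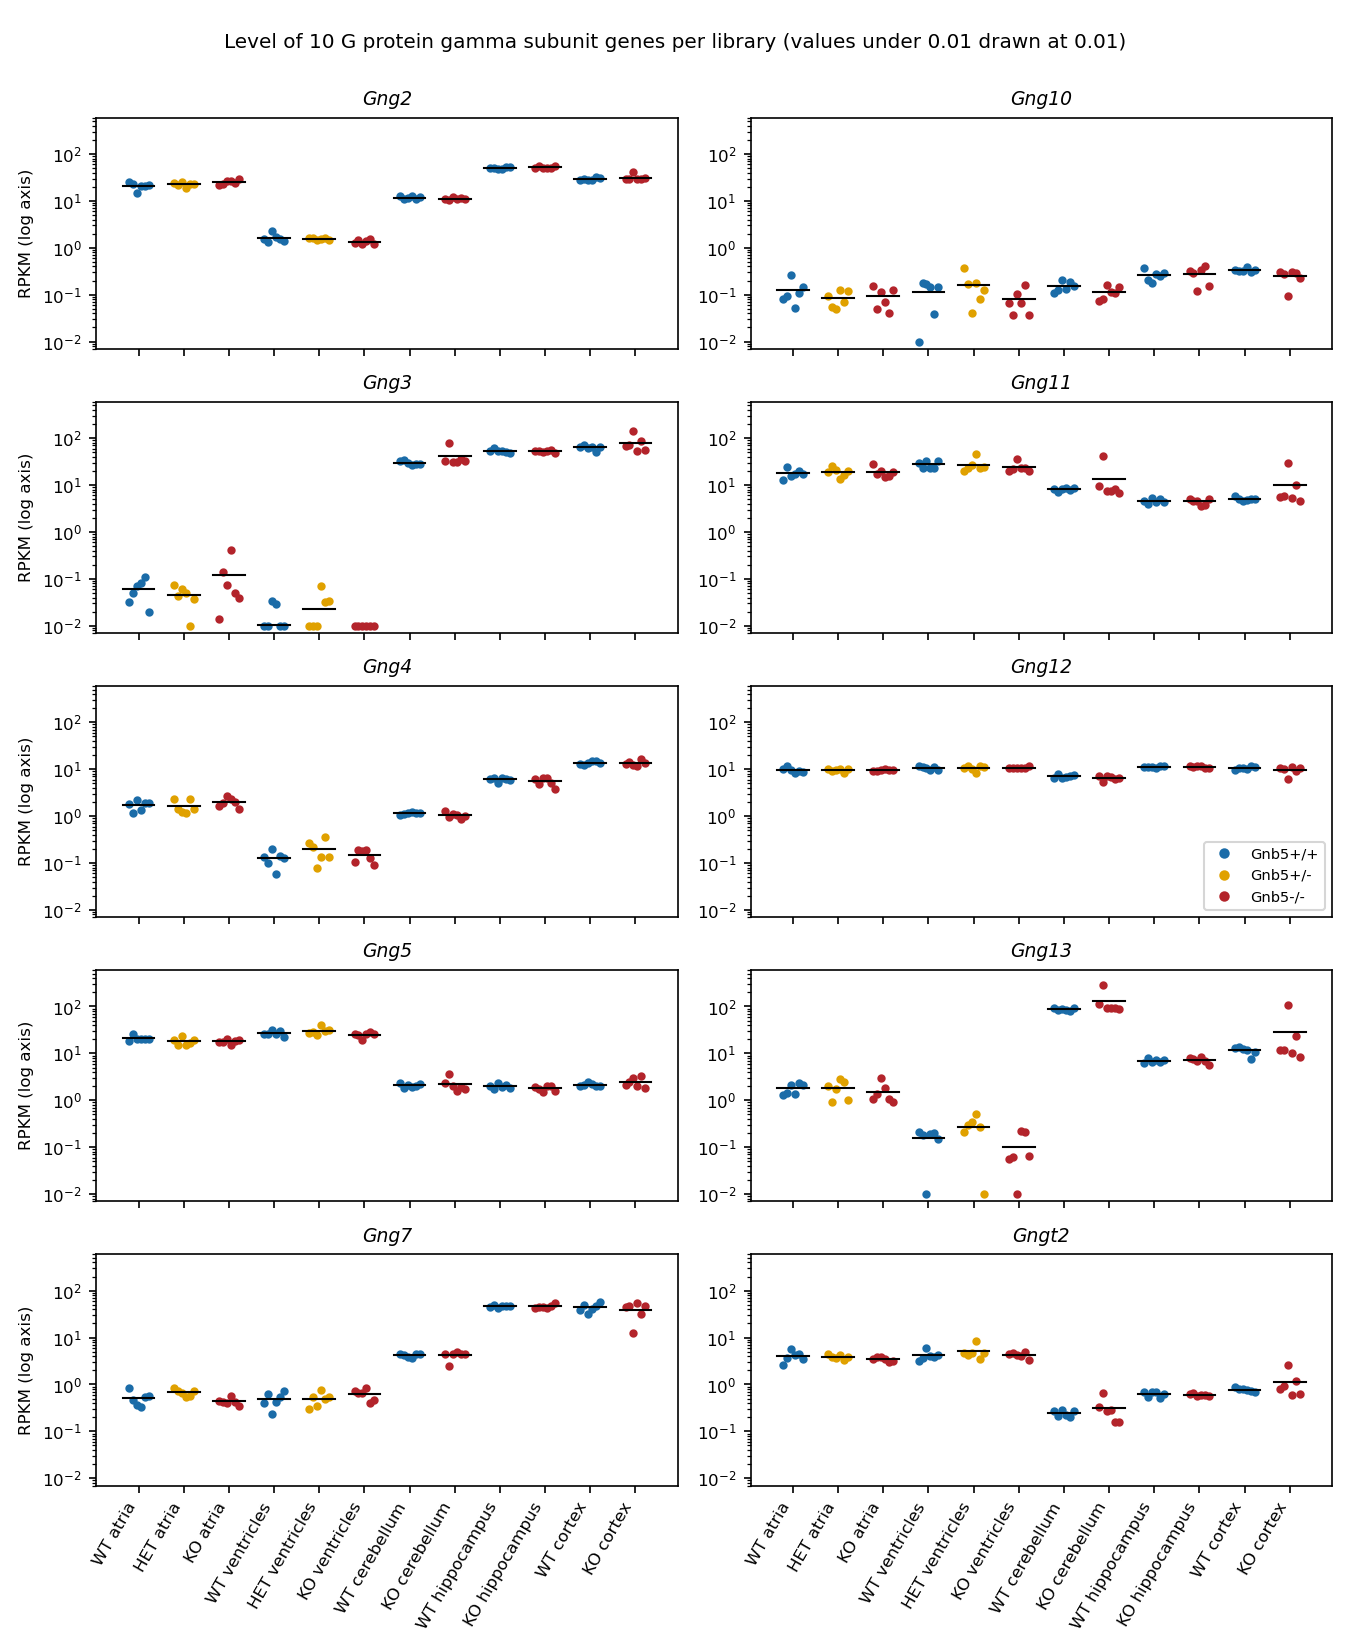
Level of each of the 10 gamma genes in every library (RPKM, log axis, values under 0.01 drawn at 0.01), with the 12 tissue and genotype groups along the horizontal axis, 1 point a mouse and a black line at the group mean. Gng12 stays between 7.07 and 11.3 in the 5 Gnb5+/+ tissues, while Gng3 falls from 63.5 in cortex to 0.0105 in ventricles. Gng2, Gng4 and Gng13 step down from atria to ventricles in all genotypes.

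As a share of the summed RPKM of the 10 genes, the leading messages of a tissue took most of the total. Gng11 made up 38.2% ± 4.85 and Gng5 37.6% ± 3.97 of the sum in Gnb5+/+ ventricles, where Gng2 held 2.26% ± 0.348. In atria Gng2 held 27.1% ± 4.32, Gng5 26.9% ± 1.46 and Gng11 22.9% ± 2.90. Gng13 took 57.4% ± 1.10 of the cerebellar sum. Hippocampus was divided among Gng3, Gng2 and Gng7, with 29.2% ± 1.92, 27.7% ± 1.28 and 25.5% ± 0.707, and in cortex the same genes held 35% ± 3.16, 16.3% ± 1.44 and 24.3% ± 3.91. The sum itself was 77.8 ± 7.66 RPKM in atria and 72.2 ± 6.86 in ventricles, and 151 ± 6.38, 180 ± 5.76 and 182 ± 11.4 in cerebellum, hippocampus and cortex. These are shares of messages, not of proteins.

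Sorted by the last codon, the 2 genes that end in serine, Gng11 and Gngt2, together held 44.0% ± 4.92 of the summed gamma messages in Gnb5+/+ ventricles, from 37.9% to 52.1% over the 6 mice. In Gnb5+/+ atria they held 28.1% ± 3.51, from 21.5% to 30.8%, so the 2 heart tissues did not overlap in this genotype. In Gnb5+/- mice the atrial shares ended at 36.8% and the ventricular ones began at 37.4%. In Gnb5-/- mice they overlapped, at 24.5% to 37.8% in atria and 36.9% to 56% in ventricles. In the Gnb5+/+ brain the share was 5.52% ± 0.437 in cerebellum, 2.89% ± 0.389 in hippocampus and 3.20% ± 0.309 in cortex. The highest shares among brain libraries came from libraries that stood apart, 9.80% in the Gnb5-/- cerebellum of mouse 12 and 9.13% in the Gnb5-/- cortex of mouse 14.

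**Figure D3:**
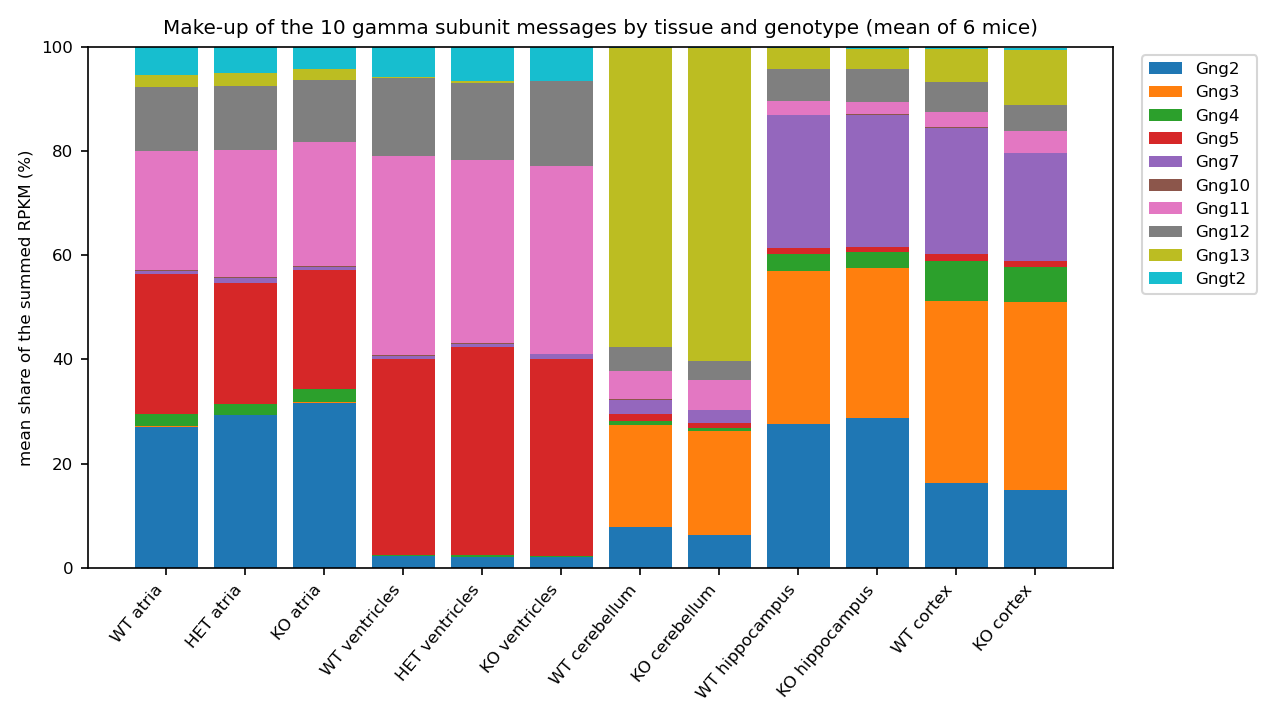
Make-up of the gamma messages in the 12 groups, as the mean share of each gene in the summed RPKM of the 10 (vertical axis, percent; mean of 6 mice, no error drawn). Gng13 fills 57.4% of the Gnb5+/+ cerebellar column, Gng11 and Gng5 fill 38.2% and 37.6% of the Gnb5+/+ ventricular one, and Gng2 falls from 27.1% in Gnb5+/+ atria to 2.26% in ventricles.

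Atria and ventricles of the same Gnb5+/+ mice differed sharply in 3 gamma genes. The level of Gng2 was 66.0 CPM in the lowest, 93.1 in the median and 110 in the highest atrial library, against 5.77, 6.79 and 10.1 in ventricles. Gng4 ranged from 3.84 through a median of 6.17 to 7.37 CPM in atria and from 0.196 through 0.429 to 0.659 in ventricles. Gng13 lay at 1.01 to 1.81 CPM in atria, on 254 reads in 6 libraries, and at 0 to 0.165 CPM in ventricles, on 15 reads. For none of the 3 did any ventricular library reach the lowest atrial one. The tissues were tested in 1 fit of the 30 Gnb5+/+ libraries with the mouse as a block (edgeR's quasi-likelihood test, Benjamini-Hochberg adjustment over all 19477 genes tested, threshold 0.05). Gng2 was 13.3-fold higher in atria (log2 3.73, SE 0.11, adjusted p 1.195e-20 by edgeR), Gng4 14.3-fold (log2 3.84, SE 0.19, adjusted p 9.488e-16) and Gng13 11.5-fold (log2 3.53, SE 0.33, adjusted p 5.017e-10). Of the 10 genes 6 were called, beside 53.6% of all genes tested. The 6 include Gng3, which is low in the heart and is taken up below. The median size of difference over the 10 genes, 0.445 log2 units, was close to the 0.414 of all genes.

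Differences in the other direction were smaller. Gng11 was at 12.1 to 22.4 CPM in Gnb5+/+ atria and 21.2 to 30.5 in ventricles, with overlapping ranges, and was 1.49-fold higher in ventricles (log2 for atria against ventricles -0.58, SE 0.12, adjusted p 0.000159 by edgeR). In Gnb5-/- libraries it was not called (log2 -0.30, SE 0.38, adjusted p 0.576 by edgeR), in a fit that also held the brain libraries that stood apart. It was higher in atria in 1 of 6 Gnb5-/- mice, with differences of -0.884 to 0.454. Gng5 was at 50.4 to 71.4 and 61.4 to 89.2 CPM, and was 1.24-fold higher in ventricles (log2 -0.31, SE 0.08, adjusted p 0.00124). Gng3 was also called (adjusted p 0.00496 by edgeR), on 18 reads in 6 atrial libraries and 2 in 6 ventricular ones, which gives a ratio of 6.03 with an exact 95% interval of 1.44 to 53.6 that covers counting error only. Gng3 and Gng10 passed the filter of this fit through their levels in the brain libraries. In the genotype fits of either heart tissue alone both were too low for the filter. Gng7, Gng10, Gng12 and Gngt2 were not called. Gng8, a subunit known from olfactory and vomeronasal neurons, was at 1.00 ± 0.222 RPKM in atria and 0.239 ± 0.118 in ventricles, and Gngt1, the rod subunit, had 0 reads in both.

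Taken mouse by mouse over all 3 genotypes, Gng2, Gng4 and Gng13 were higher in atria than in ventricles in 18 of 18 mice each, by 2.70 to 4.59, 2.61 to 4.23 and 1.44 to 5.61 log2 units. The upper values of Gng13 come from ventricular libraries with 0 reads and depend on the prior count of 2. Gng5 was higher in atria in 1 of 18 mice, Gng12 in 2, and Gng11 and Gngt2 in 3. Gng7 and Gng10 were divided, with 9 and 10 mice. In the Gnb5-/- mice Gng3 had 47 reads in the 6 atrial libraries, 30 of them in mouse 1, and 0 in the 6 ventricular ones.

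**Figure D4:**
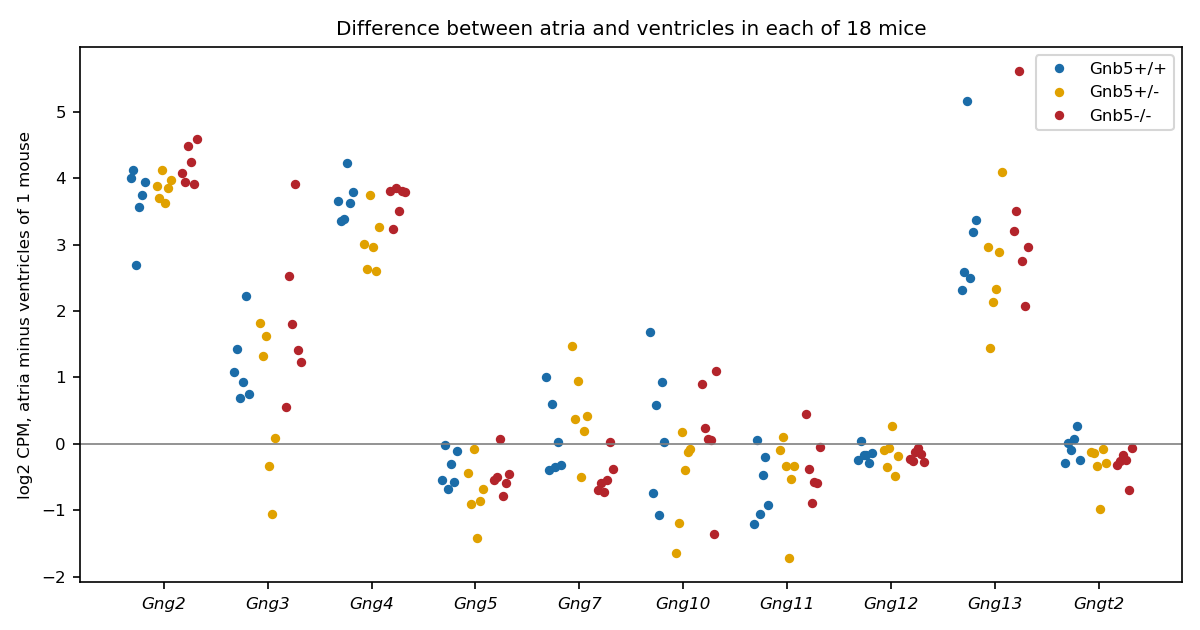
Difference in log2 CPM (prior count 2) between atria and ventricles of 1 mouse for each gamma gene, 1 point for each of 18 mice, coloured by genotype. All points of Gng2, Gng4 and Gng13 lie above 0, those of Gng2 between 2.70 and 4.59, while 17 of 18 points of Gng5 lie below it.

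Markers of other cells that the atria could hold were measured beside these genes. The summed level of 9 genes of cardiac autonomic neurons was 69.4 CPM at the median in Gnb5+/+ atria and 77.5 in ventricles, with 4 of 9 at a mean of 1 CPM or more in each. Among them Dbh was at 19.3 CPM in atria and 5.46 in ventricles and Th at 0.171 and 0, while Hand2 was at 36 and 60.6, Uchl1 at 6.39 and 9.26 and Stmn2 at 3.5 and 7.07. Endothelial genes (7) summed to 1090 CPM in atria and 1340 in ventricles, macrophage genes (8) to 333 and 231, and adipocyte genes (4) to 11 and 3.14. Their part in the differences of the gamma genes was not tested.

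The genes with which gamma subunits work were counted in the same comparison of Gnb5+/+ atria and ventricles, from lists of 5 beta subunits, 13 alpha subunits, 4 R7 RGS proteins, 6 chaperone and prenyl-processing genes and 13 targets of the beta-gamma dimer. Of all genes tested, 31% were called higher in atria and 22.7% lower. All 4 R7 RGS genes, the partners of Gbeta5, were higher in atria, with a median of 1.86 log2 units. Of the 13 targets, which include the GIRK channel genes, 8 were higher in atria and 1 in ventricles, with a median of 1.21 over the list. The beta list was divided, with 2 higher and 2 lower, as was the alpha list, with 4 and 3, and the processing list, with 2 and 2. The median of all genes in this comparison was 0.0727.

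Cerebellum differed from hippocampus of the same Gnb5+/+ mice in 9 of the 10 genes, beside 70.8% of all genes tested. Gng13 was at 63.2 to 70.8 CPM in cerebellum and 4.87 to 6.06 in hippocampus, and was 13-fold higher in cerebellum (log2 3.71, edgeR). Gng11 was 1.85-fold higher there (log2 0.89), and was higher in 6 of 6 mice. The other 7 called genes were lower in cerebellum. Gng7 was at 13.9 to 17 CPM against 162 to 184, 10.6-fold lower (log2 -3.40), Gng4 5.11-fold lower (log2 -2.35) and Gng2 4.07-fold lower (log2 -2.03). Gngt2, Gng3, Gng10 and Gng12 were lower by 1.54- to 2.45-fold, and Gng5 was not called, at log2 0.11. In Gnb5-/- libraries, with those that stood apart, Gng3 was not called (log2 -0.42, adjusted p 0.280 by edgeR). Without the mouse whose library stood apart, it was higher in cerebellum in 0 of 5 Gnb5-/- mice, at log2 -0.761 to -0.503. The call of Gng10 was lost without 1 mouse in 3 of 6 cases, with adjusted p of 0.0635, 0.093 and 0.0618 without replicates 6, 1 and 4.

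Against cortex, the cerebellum again differed in 9 of 10 genes, beside 71.8% of all genes tested. Gng13 was 7.97-fold higher in cerebellum (log2 3.00) and Gng11 1.69-fold (log2 0.76). In Gnb5-/- libraries, with those that stood apart, Gng11 was not called (log2 0.43, adjusted p 0.387 by edgeR). Without mice whose libraries stood apart, it was higher in cerebellum in 3 of 3 Gnb5-/- mice, by 0.526 to 0.791 log2 units. Gng4 was 11.5-fold lower (log2 -3.53), at 3.56 to 4.12 CPM in cerebellum and 42.1 to 50.4 in cortex, and Gng7 9.92-fold lower (log2 -3.31). Gngt2, Gng2, Gng10, Gng3 and Gng12 were lower by 1.44- to 3.01-fold, and Gng5 was not called. The comparisons with hippocampus and cortex share the cerebellar libraries and are not independent. Summed markers differed with them: 6 Purkinje cell genes stood at a median of 6040 CPM in cerebellum, 564 in hippocampus and 839 in cortex, and 4 genes of excitatory forebrain neurons at 387, 4570 and 4020. Their part was not tested.

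Hippocampus and cortex differed less. Of the 10 genes 4 were called, beside 37.7% of all genes tested. Gng2 was 1.71-fold higher in hippocampus (log2 0.77), at 207 to 228 CPM against 122 to 145 in cortex, without overlap. Gng4 was 2.25-fold higher in cortex (log2 for hippocampus against cortex -1.17) and Gng13 1.64-fold (log2 -0.71). The call of Gng3, 1.19-fold higher in cortex (log2 -0.26), was not made by DESeq2 (adjusted p 0.191) or, with edgeR, in Gnb5-/- libraries (adjusted p 0.194). The latter fit held the libraries that stood apart. Without the mice they came from, Gng3 was higher in hippocampus in 0 of 4 Gnb5-/- mice, at log2 -0.378 to -0.0077.

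Gng7 varied more among Gnb5+/+ mice in cortex than in hippocampus. Its level in the 6 Gnb5+/+ libraries was 121 CPM in mouse 17, 147 in mouse 15, 151 in mouse 18, 180 in mouse 7, 188 in mouse 16 and 221 in mouse 8, a cortical SD of 35.2 on a mean of 168, while in hippocampus the SD was 7.56 on a mean of 174. The summed level of 9 striatal genes, which could come with the cortex in dissection, was also lowest in mouse 17, at 397 CPM, and highest in mouse 8, at 888, with 545 in mouse 15, 587 in mouse 18, 671 in mouse 7 and 733 in mouse 16. The order of the 6 Gnb5+/+ mice was the same for both measures. In Gnb5-/- cortex it was not. Mice 14 and 3, whose libraries stood apart, had striatal sums of 945 and 656 CPM and Gng7 at 48.3 and 120. Mice 12, 10, 5 and 1 had striatal sums of 644, 696, 732 and 784 CPM and Gng7 at 176, 172, 177 and 207. The part of striatal tissue in the level of Gng7 was not tested.

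Over the whole comparison of heart with brain in Gnb5+/+ mice, 9 of 10 genes were called, beside 91.6% of all genes tested. Gng5 was 11.1-fold higher in heart (log2 3.48), Gngt2 8.02-fold (log2 3.00) and Gng11 3.78-fold (log2 1.92). Gng7 was 41.2-fold higher in brain (log2 for heart against brain -5.37), Gng13 36.5-fold (log2 -5.19), Gng4 10.2-fold (log2 -3.34), Gng2 4.54-fold (log2 -2.18) and Gng10 2.00-fold (log2 -1). Gng3 was at 29.7 to 63.5 RPKM in the brain regions and 0.0607 or less in the heart. Gng12 was not called (log2 0.05). The median of all genes in this comparison was -0.228 by edgeR and 0.225 by DESeq2, so differences of that size change sign with the scaling.

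The differences between brain regions were also taken mouse by mouse in the Gnb5-/- mice. Gng13 was higher in cerebellum than in cortex in 5 of 6 Gnb5-/- mice, by up to 4.56 log2 units in mouse 12, and differed by -0.159 in mouse 14. In the 3 mice without a library that stood apart in either tissue, the difference was 3.18 to 3.38. Gng7 was lower in cerebellum than in hippocampus in 6 of 6 mice of each genotype, and Gng2 higher in hippocampus than in cortex in 6 of 6.

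Between genotypes, no gamma gene was called in any of the 9 comparisons by edgeR or by DESeq2. In the atria 8 genes could be tested, Gng3 and Gng10 being too low for the filter. For Gnb5-/- against Gnb5+/+ atria 0 of 8 were called, beside 0.253% of all genes tested. An unadjusted p under 0.05 by edgeR was reached by 2 of 8, beside 8.15% of all genes tested. Gng2 was at 66.0, 93.1 and 110 CPM in the lowest, median and highest Gnb5+/+ library, at 84.5, 103 and 110 in Gnb5+/- and at 96.5, 110 and 128 in Gnb5-/-. The genotypes overlapped, and the difference of Gnb5-/- from Gnb5+/+ was log2 0.25 (SE 0.10, unadjusted p 0.022, adjusted p 0.488 by edgeR). Gng5 was at 50.4, 56.6 and 71.4 CPM in Gnb5+/+ and at 42.5, 50.2 and 56.0 in Gnb5-/- (log2 -0.22, SE 0.10, adjusted p 0.600). Gnb5+/- against Gnb5+/+ atria had 0 of 8 called, beside 0.0124%, and 0 at an unadjusted p under 0.05, beside 7.22%.

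Gnb5-/- against Gnb5+/- atria had 0 of 8 called, beside 0.0494% of all genes tested, and 1 at an unadjusted p under 0.05, beside 4.86%. That gene was Gng7, at 1.32, 1.60 and 2.14 CPM in Gnb5-/- and 2.04, 2.60 and 3.20 in Gnb5+/- libraries (log2 -0.64, SE 0.20, unadjusted p 0.00488, adjusted p 0.699). Only the ends of the ranges overlapped. Gnb5+/+ libraries, at 1.26, 1.93 and 3.15 CPM, ran across nearly the whole span of the other groups.

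In the ventricles 7 genes could be tested. Gnb5-/- against Gnb5+/+ had 0 of 7 called, beside 0.188% of all genes tested, and 1 at an unadjusted p under 0.05, beside 4.78%. That gene was Gng2, at 5.77, 6.79 and 10.1 CPM in Gnb5+/+ and 5.19, 5.87 and 6.86 in Gnb5-/- (log2 -0.29, SE 0.13, adjusted p 0.955 by edgeR). Gnb5+/- against Gnb5+/+ had 0 of 7 called, beside 0.0202%, and 0 at an unadjusted p under 0.05, beside 4.84%. Gnb5-/- against Gnb5+/- had 0 of 7 called, beside 0.0874%, and 1 at an unadjusted p under 0.05, beside 8.79%. That gene was Gng5 (log2 -0.28, SE 0.12, adjusted p 0.497 by edgeR). Without the Gnb5+/- library of mouse 4 the value of Gng5 was -0.19, Gng11 moved from -0.17 to 0.02 and Gngt2 from -0.25 to -0.05, and in Gnb5+/- against Gnb5+/+ ventricles Gng11 moved from -0.04 to -0.23 and Gngt2 from 0.27 to 0.08.

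In hippocampus, where no library stood apart, 0 of 10 genes were called, beside 0.165% of all genes tested. An unadjusted p under 0.05 by edgeR was reached by 0 of 10, beside 7.7% of all genes tested. Differences lay between -0.16 for Gng5 (SE 0.10) and 0.07 for Gng2 (SE 0.04). Gng3 was at 77.7, 86.1 and 101 CPM in Gnb5+/+ and 77.6, 88.0 and 92.3 in Gnb5-/-, and Gng7 at 162, 176 and 184 and at 159, 172 and 202. The ranges of the genotypes overlapped in both genes.

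In cerebellum 0 of 10 genes were called, beside 0.0817% of all genes tested, and 0 had an unadjusted p under 0.05, beside 5.85%. Gng13 was at 63.2, 67.5 and 70.8 CPM in Gnb5+/+ and at 69.2, 72.5 and 218 in Gnb5-/-, the last in mouse 12. Without that library the Gnb5-/- values of Gng13 ended at 88.9 CPM, and the difference fell from log2 0.56 (SE 0.27) to 0.16 (SE 0.06, unadjusted p 0.016, adjusted p 0.319 by edgeR). Gng3, at 43.8, 46.9 and 55.5 CPM in Gnb5+/+ and 51.4, 54.2 and 132 in Gnb5-/-, moved from log2 0.47 to 0.15 (SE 0.06, adjusted p 0.375). Gng11, at 6.63, 7.45 and 8.11 and at 6.29, 7.32 and 37.9 CPM, moved from 0.75 to -0.01. Gngt2 moved from 0.33 to -0.03 and Gng5 from 0.08 to -0.12. Outside mouse 12, Gng13 and Gng3 in Gnb5-/- lay in the upper part of the Gnb5+/+ range or above it, and Gng11 around it.

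In cortex 0 of 10 genes were called, beside 0.0557% of all genes tested, and 2 had an unadjusted p under 0.05, beside 7.39%. They were Gng13 (log2 1.39, SE 0.61, unadjusted p 0.041, adjusted p 0.474 by edgeR) and Gng11 (log2 1.09, SE 0.45, unadjusted p 0.032, adjusted p 0.474). Gng13 was at 5.81, 9.36 and 10.7 CPM in Gnb5+/+ and at 6.62, 9.15 and 81.1 in Gnb5-/-, so the medians were alike and mouse 14 held the highest value. Leaving out mouse 14 gave 0.20 for Gng13 and 0.33 for Gng11. With mouse 3 left out as well the values were -0.12 (SE 0.15) and 0.09 (SE 0.09), and those of Gng3 and Gngt2 moved from 0.37 and 0.60 to -0.04 and -0.05. Gng5 moved from 0.21 to -0.04, Gng2 from 0.13 to 0.01 and Gng7 from -0.15 to 0.13. The summed excitatory forebrain genes were also lower in these libraries, 1030 CPM in mouse 14 and 2160 in mouse 3 against 3710 to 4100 in the other 4, while the summed neuronal genes were at 4200 and 3500 against 3160 to 3560. The summed excitatory forebrain genes were also low in the Gnb5-/- cerebellum of mouse 12, at 171 CPM against 390 to 441 in the other Gnb5-/- cerebellar libraries. The part of tissue make-up in the gamma values of the cortex was not tested.

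**Figure D5:**
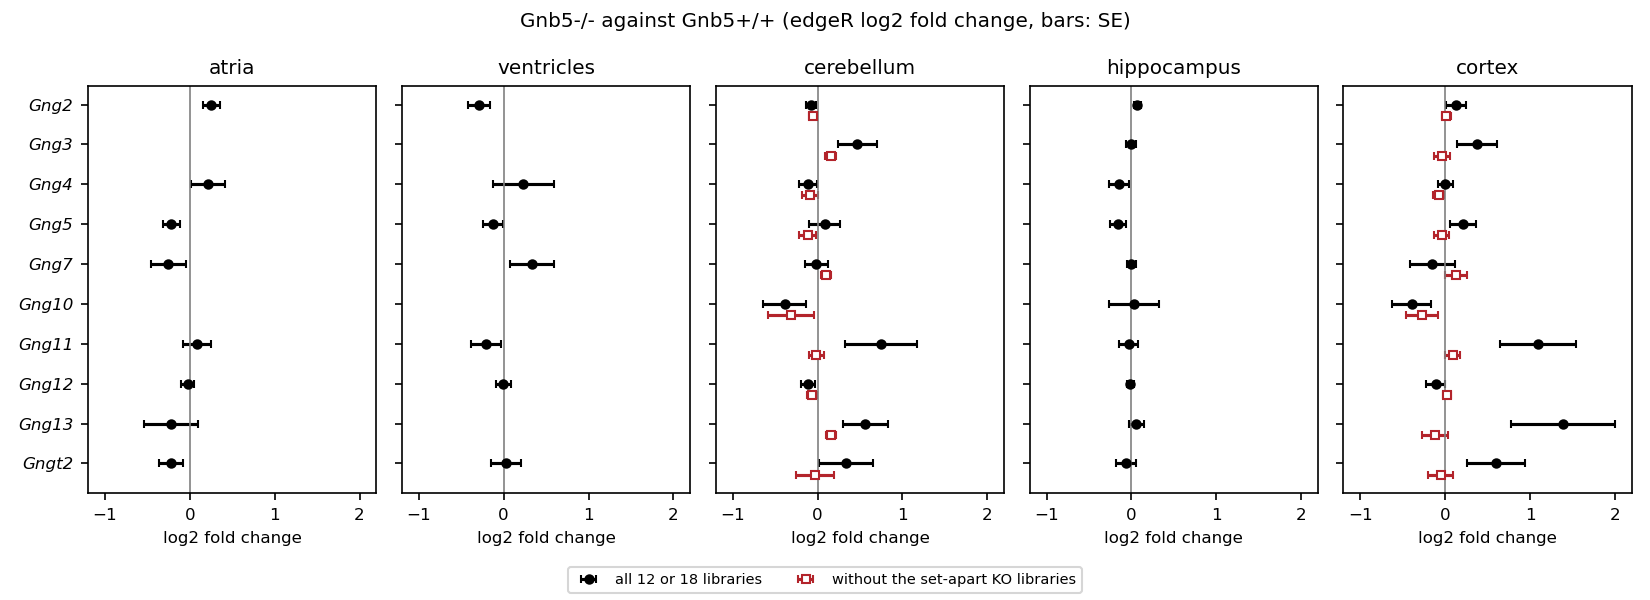
Difference between Gnb5-/- and Gnb5+/+ mice for each gamma gene in the 5 tissues (log2 fold change from edgeR with its SE as bars), with all libraries in black and, in cerebellum and cortex, without the libraries of mice 12, 14 and 3 in red. Genes below the filter in a tissue have no point. In cortex Gng13 lies at 1.39 with all libraries and at -0.12 without those of mice 14 and 3.

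Single values were also compared by exact permutation (two-sided, log2 CPM, 6 mice against 6, smallest possible p 0.00216) for the 10 genes in each of 9 comparisons. Of all these pairs of a gene and a comparison, 8 had p under 0.05 before any adjustment, and the groups overlapped in all 8. The permutation was not run over all genes, so no share stands beside this count. Libraries that stood apart entered the pairs of Gng3 and Gng13 in cerebellum, Gng10 in cortex, and Gng2 and Gng5 for Gnb5-/- against Gnb5+/- ventricles. The smallest p was 0.00433, in Gng7 for Gnb5-/- against Gnb5+/- atria and in Gng10 for Gnb5-/- against Gnb5+/+ cortex. Gng10 rested on group medians of 8.5 to 23.5 reads per brain library, and its edgeR value in cortex was -0.40 (SE 0.23, adjusted p 0.474), or -0.28 (SE 0.19, adjusted p 0.980) without mice 3 and 14. The 9 comparisons share libraries within each heart tissue.

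Differences of the Gnb5-/- effect between tissues of the same mice were tested as interactions with the mouse as a block. For ventricles against atria 0 of 8 genes were called, beside 0.00622% of all genes tested, and 2 had an unadjusted p under 0.05, beside 4.57%. The effect on Gng2 differed by -0.54 log2 units (SE 0.20, unadjusted p 0.016, adjusted p 0.973 by edgeR), from 0.25 in atria to -0.29 in ventricles, and that on Gng7 by 0.58 (SE 0.28, unadjusted p 0.049). With no filter on low counts the adjusted p of Gng2 was 0.0373, which is past the threshold. Among brain regions 0 of 10 genes were called for cerebellum against hippocampus, beside 0.0258% of all genes tested, 0 for cerebellum against cortex, beside 0.0103%, and 0 for hippocampus against cortex, beside 0%. None of the 10 had an unadjusted p under 0.05 there, beside 3.72%, 3.72% and 4.42% of all genes in the same order. Without the 3 brain libraries that stood apart 0 were called as well, and Gng3 differed by 0.17 (adjusted p 0.447) between cerebellum and hippocampus and by 0.22 (adjusted p 0.338) between cerebellum and cortex, where Gng13 differed by 0.33 (adjusted p 0.338).

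Among the genes of the same pathway, Gnb5 was the only one called by edgeR between Gnb5-/- and Gnb5+/+ mice. It was lower by log2 -4.01 in atria, -4.26 in ventricles, -2.84 in cerebellum, -2.96 in hippocampus and -3.09 in cortex (adjusted p at most 4.566e-09 by edgeR). Of the 4 R7 RGS genes, 4 were tested in every tissue except the ventricles, where 3 were, and 0 were called. The median of the 3 in ventricles was log2 0.586, beside -0.00586 for all genes, and that of the 4 in atria was 0.0933. The study described a trend towards higher R7 RGS messages in Gnb5-/- ventricles. The alpha, processing and target lists also had 0 calls in all 5 tissues. The study, which used DESeq2, reported higher Gnb3 in Gnb5-/- ventricles and listed Gnai2 among the genes that differed in cerebellum. Neither was called here, and the pathway lists were not run with DESeq2. At the protein level, the study's immunoblots did not detect Gnb3 in Gnb5-/- atria or ventricles.

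Genes whose levels ran most like a gamma gene were named by Pearson correlation of log2 CPM across the 72 libraries, among protein-coding genes at a mean of at least 1 CPM. These libraries fall into 5 tissues, so the values describe tissue patterns and carry no test. Gng3 ran with Syp, a synaptic vesicle protein gene, at r = 0.996 and with Omg at 0.994, and Gng7 with Lrrc7 and Arf3 at 0.988 each. Gng13 ran with Fndc10 at 0.970 and with Pvalb, a calcium-binding protein gene of Purkinje cells and interneurons, at 0.966. Gng4 was most like Lingo1 at 0.968, Gng2 like C530008M17Rik at 0.975 and Camk1d at 0.972, and Gng5 like Mrpl42 and Phyh at 0.995. Gng11 ran with Ubac1 at 0.967, Gngt2 with Nol3 at 0.982 and Gng12 with Fat4 at 0.919. The best value of Gng10 was 0.732, with C2cd4c.

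Within groups, after subtraction of each group mean, the likeness changed. Gng3 still ran with Syp, at 0.736, whereas Gng11 ran with Spcs1 at 0.953 and with the ribosomal protein gene Rps20 at 0.950, and Gngt2 with Myl6 at 0.852. Among the gamma genes themselves, Gng11 and Gngt2 had r = 0.756 within groups over 72 libraries and 0.258 over the 68 that remain without those that stood apart. Gng5 and Gng11 went from 0.571 to 0.109, and Gng11 and Gng12 from -0.626 to -0.0275. The likeness of Gng11 to Spcs1 was 0.786 and to Rps20 0.825 over the 68 libraries, and that of Gngt2 to Myl6 was 0.548.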

How the data were processed

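Total RNA of 72 tissue samples was made into stranded libraries (TruSeq Stranded Total RNA) and sequenced in single reads. The authors trimmed reads with cutadapt 1.8, discarded reads of ribosomal RNA or low complexity, aligned the others to GRCm38 with STAR 2.5.3a and counted them on Ensembl 92 genes with HTSeq 0.9.1. The deposited values were whole-number counts without normalization, 1 column per library, with 5 closing rows that name no gene. These rows stayed out of library sizes and tests. Among them, reads outside genes made up 2.85% to 17% of uniquely aligned reads.

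Groups and mouse numbers came from the labels. Symbols, exon lengths and coordinates were taken from GENCODE release 21, which matched 53620 of 53715 identifiers. The members and lists were chosen with earlier results of these data known. One gene of a marker list is not reported here by name. Counts were scaled by TMM, and each tissue was fitted on its own for genotype in edgeR 4.0.16 (glmQLFit and glmQLFTest, filterByExpr with a count minimum of 10, R 4.3.3) under a design of genotype alone. Gnb5+/+ tissues and the interactions were fitted with the mouse as a block, since the sample labels give the mouse of each tissue. Libraries of the same Gnb5+/+ mouse deviated together with correlations of 0.0363 to 0.661 between tissues. A gene was called at an adjusted p below 0.05. SE was the size of the log2 fold change over the root of F. CPM and RPKM used TMM factors over the 72 libraries and the union of annotated exons. Single values were compared by exact permutation of log2 CPM with a prior count of 2, over 924 divisions. All 10 members are named in every comparison, and genes of the pathway lists only for Gnb5, for calls between Gnb5-/- and Gnb5+/+ mice, and for Gnb3 and Gnai2, which the study reported.

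Alternatives were DESeq2 1.42.0, RLE factors, other filters, a robust fit, the replicate number as a block, each library left out, Gnb5-/- in place of Gnb5+/+ tissues, fits of 2 tissues, library totals and the longest transcript as length. Fits without the libraries that stood apart were chosen after seeing the data. The fits were tested on simulated data.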

Additional observations from a re-analysis of the deposited data

Results flagged for a closer look

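Each gene in each group of 6 libraries was examined for a library far from the rest (gap to the nearest value over the group's range above Dixon's 95% critical value for 6 values). Of 119 groups with reads, 21 had such a library, and 12 of the 21 lay in libraries that stood apart by transcript length. The critical value is set for about 1 in 20 among independent, normally distributed values. CPM need not be normal, some groups held few reads, and the genes share libraries. The count of 21 is therefore a description, and no chance rate is set beside it. Values are in CPM.

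The Gnb5-/- cerebellum of mouse 12 was the high library for Gng13 at 218, Gng3 at 132, Gng11 at 37.9, Gng5 at 9.92 and Gngt2 at 1.22, and the low one for Gng7 at 9.18. The Gnb5-/- cortex of mouse 14 was the high library for Gng2 at 180, Gng13 at 81.1, Gng11 at 27.4 and Gngt2 at 4.89. The Gnb5+/- ventricles of mouse 4 were high for Gng11 at 41.7 and Gngt2 at 16.

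The other 9 flags were spread over 9 groups of a gene. In the heart they were Gng3 at 0.682 in the Gnb5-/- atria of mouse 1 (others 0.0229 to 0.229), Gng11 at 25.7 in the Gnb5-/- atria of mouse 10 and at 33.4 in the Gnb5-/- ventricles of mouse 14, Gng12 at 54.4 in the Gnb5-/- ventricles of mouse 5, Gng5 at 71.4 in the Gnb5+/+ atria of mouse 16, and Gng13 at 0 in the Gnb5+/+ ventricles of mouse 17. In the brain they were Gng3 at 101 in the Gnb5+/+ hippocampus of mouse 16, Gng10 at 0.522 in the Gnb5+/+ cortex of mouse 18 and Gng11 at 5.35 in the Gnb5+/+ cortex of mouse 15.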

How the results depend on the processing

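The number of gamma genes called stayed the same in all genotype comparisons under DESeq2, RLE factors, other filters on low counts, a robust fit and each library left out, at 0. Over left-out mice the calls between Gnb5+/+ tissues were 6 for atria against ventricles, 8 to 9 for cerebellum against hippocampus, 9 for cerebellum against cortex, 4 for hippocampus against cortex and 9 for heart against brain. With no filter on low counts, 1 gene (Gng2) was called for the difference of the Gnb5-/- effect between ventricles and atria, and the cause was not tested. With the longest transcript as length, 4 of 50 places in the order of levels, and 4 in that of shares, changed among Gnb5+/+ tissues, and levels rose by up to 18.3%. Gng12 was called lower in atria than in ventricles by DESeq2 (log2 -0.16, adjusted p 0.0268) and with RLE factors (adjusted p 0.0287). In the edgeR fit of hippocampus and cortex alone, Gng12 was called higher in hippocampus (log2 0.11, adjusted p 0.0115). Gngt2 was called lower there (log2 -0.29, adjusted p 0.0494). With Gnb5-/- in place of Gnb5+/+ libraries, the calls of Gng11 for atria against ventricles and for cerebellum against cortex were lost, as were those of Gng3 for hippocampus against cerebellum and against cortex. Gained by edgeR were Gng5 (adjusted p 0.046) and Gngt2 (adjusted p 0.026), both lower in hippocampus than in cortex. Gng12 was gained as higher in heart than in brain (adjusted p 0.0107). That fit held the Gnb5-/- brain libraries that stood apart. The differences by mouse without them are given above. No called gene changed sign under an alternative, while 147 values of uncalled genes did.

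Replicate numbers join different mice across genotypes, and same-numbered libraries did not deviate together (r -0.276 to 0.126, at most 1 of 6 pairs over 0.1 in a comparison). With the replicate block 0 gamma genes were called in the 9 comparisons, and calls over all genes went from 41 to 37 for Gnb5-/- against Gnb5+/+ atria, from 28 to 23 in ventricles, from 14 to 5 in cerebellum, from 29 to 19 in hippocampus and from 10 to 6 in cortex. Without the mouse block the interactions had 0 gamma genes called, and the Gnb5+/+ tissues 6, 9, 9, 4 and 9 in the order above.

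Low counts limit Gng10 in all tissues (at most 30 reads in a library), Gng3 in both heart tissues and Gng13 in ventricles. With 6 mice a group, SE of genotype differences ran from 0.04 for Gng2 and Gng12 in hippocampus to 0.61 for Gng13 in cortex, and a gene that was not called is not shown to be the same in both genotypes. Libraries that stood apart were not explained here.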
